A study of Homo sapiens with 7 samples.

Results

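Untreated RL cells were compared with untreated JeKo-1 cells by RNA-seq; both are B-cell lymphoma lines. The comparison rests on 3 of the 7 libraries of the study: 2 RL controls and 1 JeKo-1 control, none of which received an agent. The other 4 libraries were 2 of each line after 6 h with a BTK inhibitor. They entered only the alternative fit of all 7 libraries and the alternative fits that left out an RL control. The submitters' labels call both lines mantle cell lymphoma (MCL) lines, and both were grown in RPMI medium with fetal bovine serum; cell collections hold RL as a B-cell non-Hodgkin lymphoma line and JeKo-1 as an MCL line. The labels do not state whether each RL library had a culture of its own, so the spread behind the p-values may be technical. JeKo-1 had 1 library, which the test assumes to vary as the RL libraries did, and the effect of the line cannot be told apart from that of this library or its preparation.

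Reads were counted by the authors per RefSeq transcript, and each gene is given here by the transcript with the most reads over these libraries. In all, 41084666 and 43982874 reads were counted in RL and 41488886 in JeKo-1, over all transcripts, and 17668, 17727 and 16774 genes had a read. Levels are given as CPM, reads scaled to the size of the library after TMM adjustment. They are not divided by transcript length, so they compare a gene between libraries and not genes with each other. Across 17678 genes, log2 levels correlated with Pearson r of 0.9987 between the RL libraries and of 0.895 and 0.896 between each of them and JeKo-1; genes are not independent of each other. The RNA is that of a whole culture, so fewer cells that use a gene and less RNA of it per cell cannot be told apart.

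Both lines carried the transcripts that define B cells. CD79B, a signalling chain of the B-cell receptor (BCR), stood at 378 and 356 CPM in RL against 342 CPM in JeKo-1, and the B-lineage factor PAX5 at 70.8 and 70.5 CPM in RL against 60.4 CPM in JeKo-1. The T-cell receptor genes CD3D, CD3E and CD3G had at most 2 reads in any library, and the myeloid genes MPO, ELANE and S100A8 and the haemoglobin gene HBB had none. Summed over 12 defining B-cell markers the RL libraries held 3191 and 3114 CPM and JeKo-1 1868 CPM, so B-cell transcripts were abundant in every library.

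MCL is a lymphoma of B cells in which a translocation usually drives cyclin D1, the regulator that opens the G1 phase of the cell cycle by way of CDK4 and CDK6. Its cells often depend on the BCR, whose kinases SYK and BTK pass signals by way of BCL10 and MALT1 to NF-kB. NF-kB in turn switches on inhibitors of cell death, cytokines and chemokines. B cells also present antigen on MHC class II molecules, whose genes are switched on together by the coactivator CIITA.

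Of 15515 genes tested, 78.5% differed between the lines at an adjusted p under 0.05, 40.3% being higher in RL and 38.2% higher in JeKo-1. In all 12176 of these genes both RL libraries lay on the same side of the JeKo-1 library. A call almost requires this, since its spread came from the RL libraries, so it adds no support to the calls. Since most genes were called, the size of the difference is given beside each call. Counting only called genes that differed at least 4-fold, 19.6% of genes remained: 13.6% were higher in RL (2111 genes) and 5.95% higher in JeKo-1 (923 genes), and all shares below are read against these. The median log2 fold change of RL over JeKo-1 over all genes tested was 0.05. Errors after ± are standard errors of the log2 fold change.

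**Figure D1:**
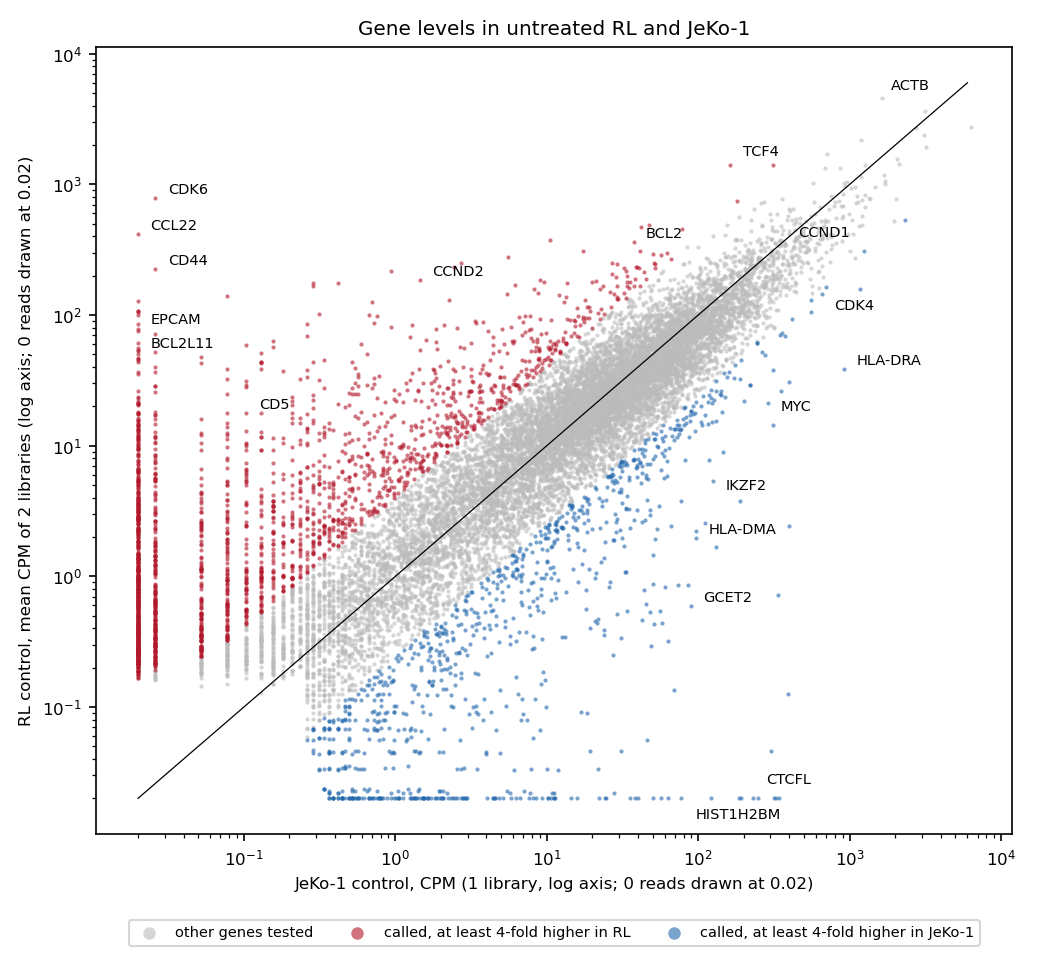
Level of each tested gene in the JeKo-1 control (x axis, CPM, log scale, 1 library) and in the RL controls (y axis, mean CPM of 2 libraries, log scale); red and blue points are called genes at least 4-fold higher in RL or in JeKo-1, and the line marks equal levels. Red points (2111) outnumber blue points (923), and CDK6, CCL22 and CD44 in RL and histone HIST1H2BM and CTCFL in JeKo-1 lie far from it.

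The greatest differences were genes that were abundant in 1 line and had no or almost no reads in the other. At a level of at least 20 CPM in every library of a line, 28 genes had reads in RL and none in JeKo-1, and 13 genes had reads in JeKo-1 and none in RL. A level of 3 reads was taken as the floor of detection in each library, and folds against 0 reads are given as bounds against that floor; they cover counting error only. CCL22, a chemokine that attracts CCR4-bearing T cells, had 17542 and 19017 reads in RL and none in JeKo-1, at least 5318-fold higher in RL. CDK6, the G1 kinase partner of D cyclins, had 34691 and 34572 reads in RL and 1 read in JeKo-1, a CPM ratio whose 95% counting interval runs from 5426 to 1194059. CD44, an adhesion receptor for hyaluronan, had 9519 and 10396 reads in RL and again 1 read in JeKo-1. The list led by size also held the neural adhesion gene LSAMP, the peroxidasin gene PXDN, MDFIC, the serotonin receptor gene HTR3A, the mechanosensitive channel gene PIEZO2, EPCAM, the cell death gene BCL2L11, the guidance receptor gene ROBO1, MYOCD, PHACTR2, the semaphorin gene SEMA3C and HNRPLL. None of these had a read in JeKo-1, and they stood between 49.4 and 132 CPM in the RL libraries.

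In the other direction, 7 of the 15 greatest differences were histone genes, described with their neighbours at the end. CTCFL, the testis paralogue of the insulator protein CTCF, had 12291 reads in JeKo-1 and none in RL, at least 4687-fold higher in JeKo-1. The dipeptidase gene DPEP3 and the guanine deaminase gene GDA had 4718 and 2193 reads in JeKo-1. HLA-DQA2, CTAG2, the receptor tyrosine kinase gene ERBB4, PPP1R9A and the ligand gene BMP7 stood between 24.1 and 50.4 CPM in JeKo-1. None of these 8 genes had a read in either RL library.

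Genes of a list drawn up for MCL were read in both lines, and most stood higher in RL. CCND1, which encodes cyclin D1, stood at 588 and 563 CPM in RL against 389 CPM in JeKo-1, a log2 fold change of 0.56 ± 0.06 (adjusted p = 3.95e-08). SOX11, a transcription factor used to diagnose MCL, stood at 170.3 and 155 CPM in RL against 35.1 CPM in JeKo-1, 4.62 times as high in RL. CD5, a surface marker of most MCL, stood at 18.6 and 17.1 CPM in RL against 0.104 CPM in JeKo-1, so that it was close to the floor in JeKo-1. ROR1, a WNT5A receptor that many MCL cells carry, went the other way with 0.447 and 0.328 CPM in RL against 23.9 CPM in JeKo-1. Of 19 tested genes of this list, 15 were higher in RL and 4 in JeKo-1, with 6 and 1 past 4-fold and a median log2 fold change of 1.5. FARP1, the IgE receptor gene FCER2, the TACI gene TNFRSF13B and the kinase gene CSNK1E were among those past 4-fold in RL, at 28.0, 16.6, 5.77 and 4.80 times the JeKo-1 level. FCER2 encodes CD23, which most MCL lacks, so the counts of this list do not rank the lines by likeness to MCL. The differences of DBN1, IGF1R and SETMAR were the smallest of the list, with log2 fold changes of 0.21, -0.51 and -0.52.

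Germinal center markers differed by member, and their share past 4-fold was near that of all genes. GCET2, which is named for germinal center expression, stood at 0.447 and 0.743 CPM in RL against 89.8 CPM in JeKo-1, and BACH2, a repressor that holds off plasma cell fate, at 2.21 and 2.38 CPM in RL against 53.5 CPM in JeKo-1. Both were low in each RL library. SSBP2 was likewise higher in JeKo-1, at 14.8 times the RL level, while the adaptor gene STAP1 and SERPINA9 were 12 and 4.59 times as high in RL. BCL6, the master repressor of the germinal center, was low in both lines, at 1.97 and 2.12 CPM in RL against 1.51 CPM in JeKo-1, and its difference did not pass the test (adjusted p = 0.0787). MME, which encodes CD10, stood at 19.3 and 18.4 CPM in RL against 16.0 CPM in JeKo-1. GNA13, S1PR2 and KLHL6 differed least, with log2 fold changes of -0.0038, -0.05 and -0.10 and adjusted p from 0.169 to 0.954. Of 27 tested germinal center markers 9 were higher in RL and 11 in JeKo-1, with 2 (1 without RL control 2) and 4 past 4-fold, or 6 of 27 in all against 19.6% of all genes tested; their median of -0.05 turned to 0.11 when libraries were scaled by total reads alone and to 0.045 without RL control 2.

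Plasma cell and activated B-cell markers leaned to RL, where 19 of 26 were higher and 7 lower, with 10 and 1 past 4-fold and a median of 1.11. CCND2, the cyclin D gene of activated B cells, stood at 184 and 185 CPM in RL against 1.45 CPM in JeKo-1. PRDM1, the driver of plasma cell fate that BACH2 represses, stood at 29.6 and 25.4 CPM in RL against 2.23 CPM in JeKo-1, and FCRL4, an Fc receptor-like gene of tissue memory B cells, had 1828 and 2439 reads in RL against 2 in JeKo-1. IRF4, which activated B cells and plasma cells share, stood at 286 and 300.2 CPM in RL against 224 CPM in JeKo-1. The remaining direction was not uniform: FKBP11, a chaperone of secreting cells and chosen here after its value was seen, was 6.95 times as high in JeKo-1.

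Among 36 transcription factors of the B lineage, 23 were higher in RL and 12 in JeKo-1, with 6 and 2 past 4-fold. These shares were near those of all genes tested, 13.6% and 5.95%. TCF4, a basic helix-loop-helix factor, stood at 1442 and 1384 CPM in RL against 163 CPM in JeKo-1, and IKZF2, the Ikaros family member Helios, at 5.15 and 5.51 CPM in RL against 126 CPM in JeKo-1. These genes thus differed in opposite directions. MEF2C, ID3 and KLF2 were 11.8, 8.53 and 7.88 times as high in RL, whereas BACH1, FLI1 and IRF8 differed by a log2 fold change of at most 0.19. Genes of early B cells leaned to JeKo-1. RAG1, which cuts immunoglobulin genes for recombination, stood at 0.212 and 0.503 CPM in RL against 23.8 CPM in JeKo-1. VPREB1, part of the surrogate light chain of pre-B cells, had 169 reads in JeKo-1 and none in RL, and its partner IGLL1 had 225 reads in JeKo-1 against 1 and 0. IL7R, the receptor of the cytokine that early B cells and T cells require, had 858 reads in JeKo-1 against 0 and 1 in RL. Of 15 tested early genes 10 were higher in JeKo-1 and 4 in RL; 4 were past 4-fold in JeKo-1 and 2, KIT and FLT3, in RL.

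**Figure D2:**
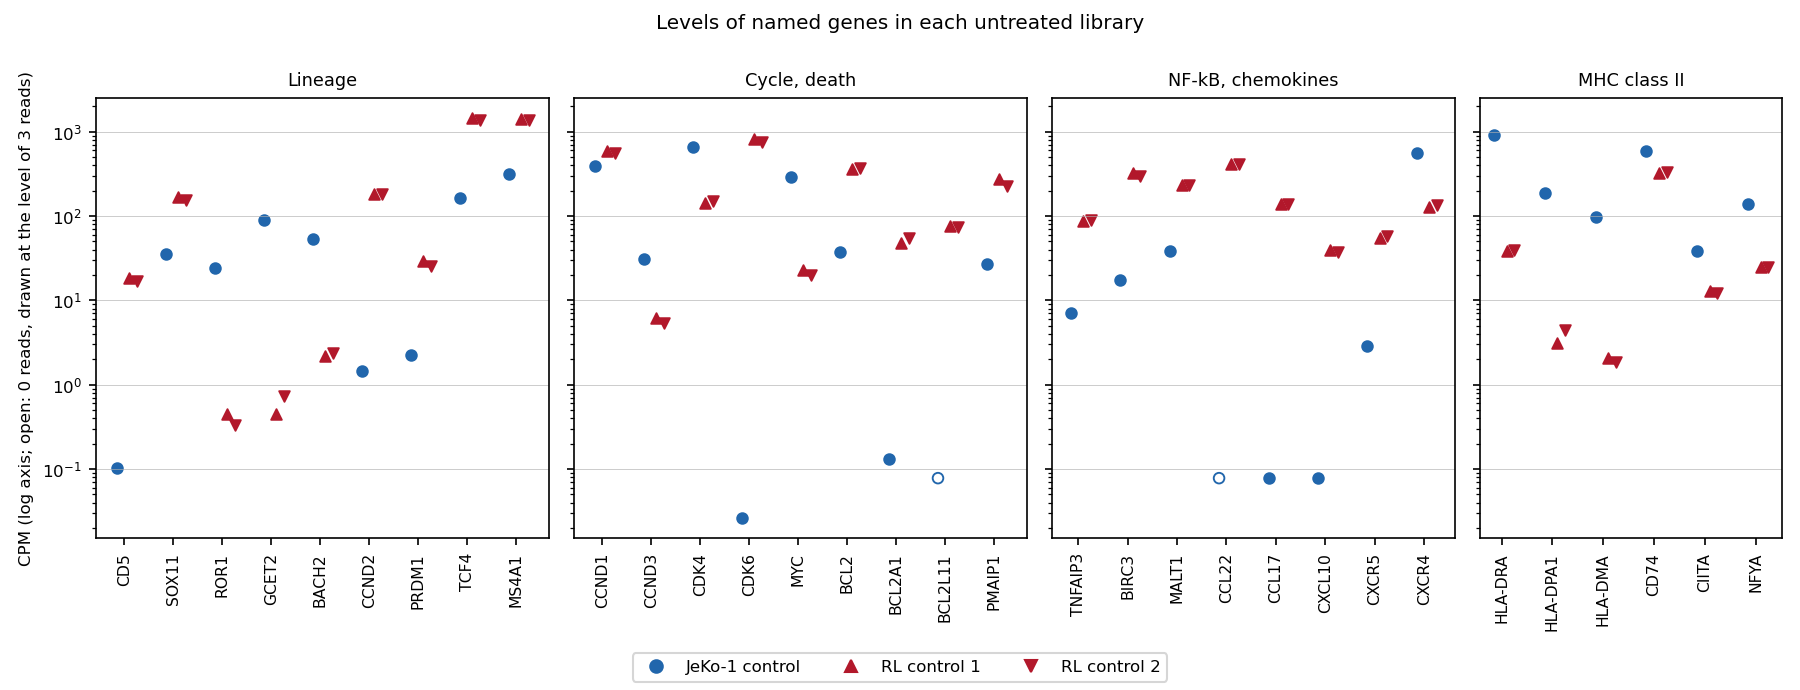
Level in each untreated library (CPM, log axis) of genes of 4 groups; circles are the JeKo-1 control, upward and downward triangles the RL controls, and open symbols stand for 0 reads and are drawn at the level of 3 reads. The RL triangles of each gene lie close together, above the circle for CD5, CCND2, CDK6 and BCL2 and below it for ROR1, GCET2, MYC and the MHC class II genes.

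The D cyclin and CDK genes differed by member, some in each direction. CDK4, the other kinase partner of D cyclins, stood at 142 and 149 CPM in RL against 657 CPM in JeKo-1, a log2 fold change of -2.17 ± 0.05 (adjusted p = 2.81e-17), opposite in direction to CDK6 above. CCND3, the third D cyclin, stood at 6.16 and 5.34 CPM in RL against 30.7 CPM in JeKo-1, again opposite to CCND2. JeKo-1 thus had reads of CCND1, CCND3 and CDK4, with a low level of CCND2 and almost no reads of CDK6, while RL had reads of all 5. The inhibitor gene CDKN2A stood at 7.45 and 6.71 CPM in RL against 4.23 CPM in JeKo-1, and MTAP, its neighbour, at 44.9 and 44.5 CPM in RL against 66.5 CPM in JeKo-1. E2F1, RBL1 and CDKN1B differed by log2 fold changes of -0.09, 0.15 and 0.16. Of the 23 genes in this list, 12 were higher in RL and 9 in JeKo-1, with a median of 0.16, and 2 were past 4-fold either way (CCND2 and CDK6, CCND3 and CDK4).

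MYC, the growth regulator, stood at 22.9 and 19.9 CPM in RL against 290.5 CPM in JeKo-1, 13.6 times as high in JeKo-1 (log2 fold change -3.76 ± 0.06, adjusted p = 2.30e-19). Its relative MYCN had 165 and 169 reads in RL and 2 in JeKo-1. The antagonist gene MXI1 followed MYC, at 6.80 times the RL level in JeKo-1, whereas MAX, the partner of MYC, differed by -0.35 on the log2 scale. NCL, the nucleolin gene and a MYC target, was 2.64 times as high in JeKo-1, and the target ODC1 stood at 922 and 965 CPM in RL against 1028 CPM in JeKo-1, a difference that did not pass the test (adjusted p = 0.0629). The list of 20 MYC network genes had a median of -0.42, with 14 higher in JeKo-1 and 5 in RL. Of 37 tested genes of the DNA damage response, 21 were higher in JeKo-1 and 12 in RL, with 2 past 4-fold either way (1 in RL without RL control 1, 1 in JeKo-1 without RL control 2). BAX and PLK3 were 3.80 and 4.12 times as high in RL, and the repair gene MGMT 4.88 times as high in JeKo-1. ATM, the kinase that reports DNA breaks and is often lost in MCL, stood at 169 and 162 CPM in RL against 233 CPM in JeKo-1.

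Genes that block mitochondrial cell death and genes that trigger it were both among those higher in RL. BCL2, which blocks cell death, stood at 359 and 368 CPM in RL against 37.5 CPM in JeKo-1, a log2 fold change of 3.28 ± 0.07 (adjusted p = 2.39e-18). BCL2A1, an NF-kB target with the same role, stood at 48.0 and 55.1 CPM in RL against 0.130 CPM in JeKo-1. BCL2L11, which encodes the trigger BIM that BCL2 binds, had 3254 and 3432 reads in RL and none in JeKo-1, at least 973-fold higher in RL. The trigger gene PMAIP1 (NOXA), chosen after its value was seen, stood at 278 and 225 CPM in RL against 27.0 CPM in JeKo-1, and the caspase gene CASP10 was 62.3 times as high in RL. BAD and CYCS differed least, with log2 fold changes of 0.01 and -0.08. Of 30 tested genes of this family and of apoptosis, 16 were higher in RL and 10 in JeKo-1; 9 were past 4-fold in RL, or 8 with genes at 0 reads held at their bound, against 1 in JeKo-1.

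BTK, the target of the inhibitor used in this study, stood at 136 and 143 CPM in RL against 126 CPM in JeKo-1, a log2 fold change of 0.14 ± 0.06 (adjusted p = 0.0249). Without RL control 2 that difference was 0.11. INPP5D and VAV1, which act beside BTK, differed by 0.03 and -0.05 on the log2 scale, neither past the test (adjusted p = 0.67 and 0.46). Of 55 tested signalling genes, 7 were past 4-fold in RL and 5 in JeKo-1, against 13.6% and 5.95% of all genes, and the median was 0.32. The adaptor gene DOK2, the kinase gene SRC, the RAS activator gene RASGRP3 and the PI3-kinase subunit gene PIK3R5 were 28.6, 14.7, 10.0 and 8.28 times as high in RL. FGR, a SRC family kinase gene, had 57 reads in JeKo-1 and 0 and 6 in RL, a difference that edgeR called and DESeq2 did not (adjusted p = 0.283). Among 23 tested chains and coreceptors, 9 were past 4-fold in RL and 2 in JeKo-1, with a median of 1.21. CR2, the complement receptor CD21, had 211 and 234 reads in RL and none in JeKo-1. FCRL2 and FCRL3, Fc receptor-like genes, stood at 168 and 172 CPM in RL against 6.13 CPM in JeKo-1, and at 40.3 and 47.4 CPM in RL against 0.519 CPM in JeKo-1. LAIR1, an inhibitory receptor gene, was higher in JeKo-1, with 65 reads against 1 and 7.

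NF-kB pathway genes stood higher in RL almost throughout, 31 of 37 against 4 higher in JeKo-1. None was past 4-fold in JeKo-1 and 12 were in RL, or 32.4% against 13.6% of all genes tested, and the median was 1.52. BIRC3, an ubiquitin ligase that NF-kB induces, stood at 321 and 298 CPM in RL against 17.4 CPM in JeKo-1, a log2 fold change of 4.15 ± 0.08 (adjusted p = 9.24e-19). TNFAIP3, which encodes the feedback inhibitor A20, stood at 87.2 and 88.9 CPM in RL against 7.01 CPM in JeKo-1, and MALT1, a protease that relays BCR signals to NF-kB, at 234 and 233 CPM in RL against 38.8 CPM in JeKo-1. TLR10, a Toll-like receptor gene, was 19 times as high in RL. BCL3, NFKBIZ and TRAF1, which act with NF-kB or are induced by it, were 8.83, 7.77 and 7.26 times as high. The DNA-binding subunit genes RELA and NFKB2 and the ligase gene BIRC2 differed by 0.16, 0.28 and 0.01 on the log2 scale.

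Chemokine, cytokine and receptor genes also stood higher in RL more often than in JeKo-1. Besides CCL22, CCL17, which acts on the same receptor CCR4, had 5977 and 6420 reads in RL and 3 in JeKo-1, and CXCL10, a chemokine for CXCR3-bearing T cells, had 1692 and 1720 against 3. The counting intervals of the CPM ratios ran from 617 to 8747 and from 169.7 to 2408. Of receptors, CXCR3 had 394 and 359 reads in RL and 1 in JeKo-1, and CXCR5, which guides B cells into follicles and was chosen after its value was seen, stood at 55.3 and 57.6 CPM in RL against 2.85 CPM in JeKo-1. CXCR4, which holds B cells in bone marrow and germinal center dark zones, went the other way, at 129.7 and 134 CPM in RL against 555 CPM in JeKo-1. Of 21 tested genes of this list 10 were past 4-fold in RL, or 9 with genes at 0 reads held at their bound, against 1 in JeKo-1 (2 without RL control 1). Of 35 tested cytokine receptor, JAK, STAT and SOCS genes, 14 were past 4-fold in RL and 3 in JeKo-1. SOCS3, a feedback inhibitor of STAT3 signals, had 760 and 821 reads in RL and 3 in JeKo-1. IL2RA was 35.5 times as high in RL, and IL10 had 107 and 103 reads against 1. STAT6, which reports IL-4 signals and was chosen after its value was seen, stood at 67.9 and 72.9 CPM in RL against 346 CPM in JeKo-1, higher in JeKo-1. In the TNF family, 8 of 22 tested genes were past 4-fold in RL, among them TNF with 189 and 158 reads against 1, while the TNF receptor gene TNFRSF1A had 154 reads in JeKo-1 against 0 and 4 and was called by edgeR but not by DESeq2 (adjusted p = 0.0721).

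The promoters of 3 genes that stood higher in RL are shown because NF-kB is known to act on genes of this kind. The windows come from RefSeq (GRCh38.p14), run 5′ to 3′ on the gene's strand from 250 bases before to 50 bases after its start, and have matches to GGGA, any 4 bases and CC on either strand in capitals. They lie at chr6:137867009-137867308 (TNFAIP3, + strand), chr16:57358533-57358832 (CCL22, + strand) and chr4:76023448-76023747 (CXCL10, − strand).
TNFAIP3: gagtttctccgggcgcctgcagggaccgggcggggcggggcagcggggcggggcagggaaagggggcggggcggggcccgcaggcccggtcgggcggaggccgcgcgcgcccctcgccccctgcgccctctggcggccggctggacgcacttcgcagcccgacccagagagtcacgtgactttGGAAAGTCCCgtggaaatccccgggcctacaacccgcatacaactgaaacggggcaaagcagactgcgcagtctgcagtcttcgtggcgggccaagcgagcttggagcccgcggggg
CCL22: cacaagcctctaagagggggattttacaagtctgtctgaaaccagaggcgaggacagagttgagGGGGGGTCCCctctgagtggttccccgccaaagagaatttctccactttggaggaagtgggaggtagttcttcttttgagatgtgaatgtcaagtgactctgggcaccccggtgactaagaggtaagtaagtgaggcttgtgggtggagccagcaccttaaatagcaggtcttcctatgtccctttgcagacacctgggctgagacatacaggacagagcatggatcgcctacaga
CXCL10: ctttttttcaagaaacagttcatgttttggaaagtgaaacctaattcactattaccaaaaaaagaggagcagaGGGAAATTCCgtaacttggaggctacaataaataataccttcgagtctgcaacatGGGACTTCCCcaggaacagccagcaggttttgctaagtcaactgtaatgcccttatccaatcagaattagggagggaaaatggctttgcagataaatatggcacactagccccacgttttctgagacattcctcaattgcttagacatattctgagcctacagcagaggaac
The match begins 67 bases before the start in TNFAIP3 and 186 bases before it in CCL22, and those of CXCL10 begin 177 and 122 bases before it. The motif was found in 25.6% of all 35116 promoter windows. It was found in 24 of 46 windows of the NF-kB list (52.2%, 17 of 29 genes with a window) and in 8 of 29 windows of the homing and chemokine list (27.6%). A match describes letters only, and the data hold no measure of binding.

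MHC class II was the list that leaned most to JeKo-1. Of 23 genes tested, 19 were higher in JeKo-1 and 3 in RL; 13 were past 4-fold in JeKo-1 and none in RL, or 56.5% against 5.95% of all genes tested, and the median was -2.49. Chromosome 6, where the HLA genes lie, also leaned to JeKo-1, with 15.7% of its 801 tested genes past 4-fold there and a median of -0.68. HLA-DRA, the chain shared by all HLA-DR molecules, stood at 38.5 and 39.1 CPM in RL against 921 CPM in JeKo-1, a log2 fold change of -4.57 ± 0.06 (adjusted p = 3.35e-21). HLA-DPA1 stood at 3.15 and 4.46 CPM in RL against 189 CPM in JeKo-1, and HLA-DMA, which helps load peptides, at 2.07 and 1.84 CPM in RL against 97.0 CPM in JeKo-1. The RL libraries lay 49.8 and 49.7 times lower than JeKo-1 in these 2 genes. HLA-DQA1 stood at 0.235 and 0.350 CPM in RL against 48.5 CPM in JeKo-1, and HLA-DQA2 and HLA-DQB2 had 1943 and 79 reads in JeKo-1 and none in RL. HLA-DRB1 with HLA-DRB5 and HLA-DQA1 with HLA-DQA2 are close copies and vary between people, so their read counts are uncertain.

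CIITA, the coactivator, stood at 12.7 and 12.1 CPM in RL against 38.8 CPM in JeKo-1, 3.13 times as high in JeKo-1. CD74, the invariant chain that rides with class II, stood at 326 and 329 CPM in RL against 592 CPM in JeKo-1, 1.81 times as high. Of the factors that bind class II promoters, NFYA stood at 25 and 24.8 CPM in RL against 139.8 CPM in JeKo-1 and was 5.61 times as high in JeKo-1, whereas NFYB, NFYC and RFXANK differed by 0.11, -0.20 and 0.18 on the log2 scale. RFX5, chosen after its value was seen, was 3.47 times as high in JeKo-1. IFI30 and CTSS, which cut proteins for class II loading and were chosen the same way, were higher in RL, by 1.37 and 0.44 on the log2 scale. Class I did not share the pattern: of 26 tested genes of class I and antigen processing, 10 were higher in RL and 12 in JeKo-1, 1 was past 4-fold either way (2 in JeKo-1 when either RL control was left out), and the median of -0.08 turned to 0.08 when scaled by total reads. HLA-B stood at 664 and 639 CPM in RL against 233 CPM in JeKo-1. HLA-C stood at 102 and 96.9 CPM in RL against 96.3 CPM in JeKo-1. Both genes vary between people, like the class II genes above, so their read counts are uncertain too. The lipid-presenting gene CD1C stood at 271 and 287 CPM in RL against 5.53 CPM in JeKo-1.

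Promoters of class II genes carry a conserved set of boxes, of which the Y box reads CCAAT and is bound by NF-Y, the complex of NFYA, NFYB and NFYC. The windows of 3 members are shown for this box, again from RefSeq (GRCh38.p14) and with CCAAT or its reverse complement ATTGG in capitals. They lie at chr6:32953048-32953347 (HLA-DMA, − strand), chr6:33075740-33076039 (HLA-DPB1, + strand) and chr5:150412861-150413160 (CD74, − strand).
HLA-DMA: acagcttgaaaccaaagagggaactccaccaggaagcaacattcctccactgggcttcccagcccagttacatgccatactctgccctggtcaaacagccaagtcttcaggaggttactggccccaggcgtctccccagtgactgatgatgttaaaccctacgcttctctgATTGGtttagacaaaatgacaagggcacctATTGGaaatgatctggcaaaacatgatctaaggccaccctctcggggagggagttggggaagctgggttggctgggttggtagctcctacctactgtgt
HLA-DPB1: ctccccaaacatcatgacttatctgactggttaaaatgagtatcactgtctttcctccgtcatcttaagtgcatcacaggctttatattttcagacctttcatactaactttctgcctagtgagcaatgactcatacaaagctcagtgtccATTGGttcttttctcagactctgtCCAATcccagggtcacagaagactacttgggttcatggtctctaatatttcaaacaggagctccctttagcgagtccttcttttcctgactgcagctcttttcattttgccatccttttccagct
CD74: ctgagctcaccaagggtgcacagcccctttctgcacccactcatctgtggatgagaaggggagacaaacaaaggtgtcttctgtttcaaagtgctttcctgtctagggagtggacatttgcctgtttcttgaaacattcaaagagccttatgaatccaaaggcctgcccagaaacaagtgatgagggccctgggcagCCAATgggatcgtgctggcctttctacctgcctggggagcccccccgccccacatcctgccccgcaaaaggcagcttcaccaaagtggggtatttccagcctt
The matches begin 79 and 49 bases before the start in HLA-DMA, 99 and 75 bases before it in HLA-DPB1 and 53 bases before it in CD74. Of 26 windows of the class II list, which includes its regulators, 18 (69.2%) held the motif on either strand, in 16 of 19 genes with a window, against 34.6% of all promoter windows. HLA-DPB1 stood at 2.00 and 2.45 CPM in RL against 96.1 CPM in JeKo-1, so genes with the motif differed both much (HLA-DMA, HLA-DPB1) and little (CD74).

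Surface molecules leaned to RL, including several that antibodies and engineered T cells are aimed at. MS4A1, which encodes CD20, stood at 1419 and 1374 CPM in RL against 312 CPM in JeKo-1, a log2 fold change of 2.16 ± 0.07 (adjusted p = 7.94e-16). CD37, a tetraspanin of B cells, stood at 157 and 162 CPM in RL against 8.23 CPM in JeKo-1, and CD80, a costimulator of T cells, at 33.4 and 33.8 CPM in RL against 0.571 CPM in JeKo-1. CD79B was among the targets that differed least. Of 24 tested target antigens, 12 were past 4-fold in RL and 2 in JeKo-1, with a median of 2.06; ROR1 was 1 of the 2 in JeKo-1, and CXCR4 the other. Among 34 tested adhesion molecules 17 were past 4-fold in RL and 3 in JeKo-1. L1CAM had 211 and 261 reads in RL and 1 in JeKo-1, and CD9 was 15.4 times as high in RL. Among 22 tested costimulatory, checkpoint and SLAM genes, 8 were past 4-fold in RL and 2 in JeKo-1. TNFSF4 and CD58 were 10.5 and 9.82 times as high in RL, CD28 was 12.9 times as high in JeKo-1, and CD274, which encodes PD-L1, was below 1 CPM in every library.

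**Figure D3:**
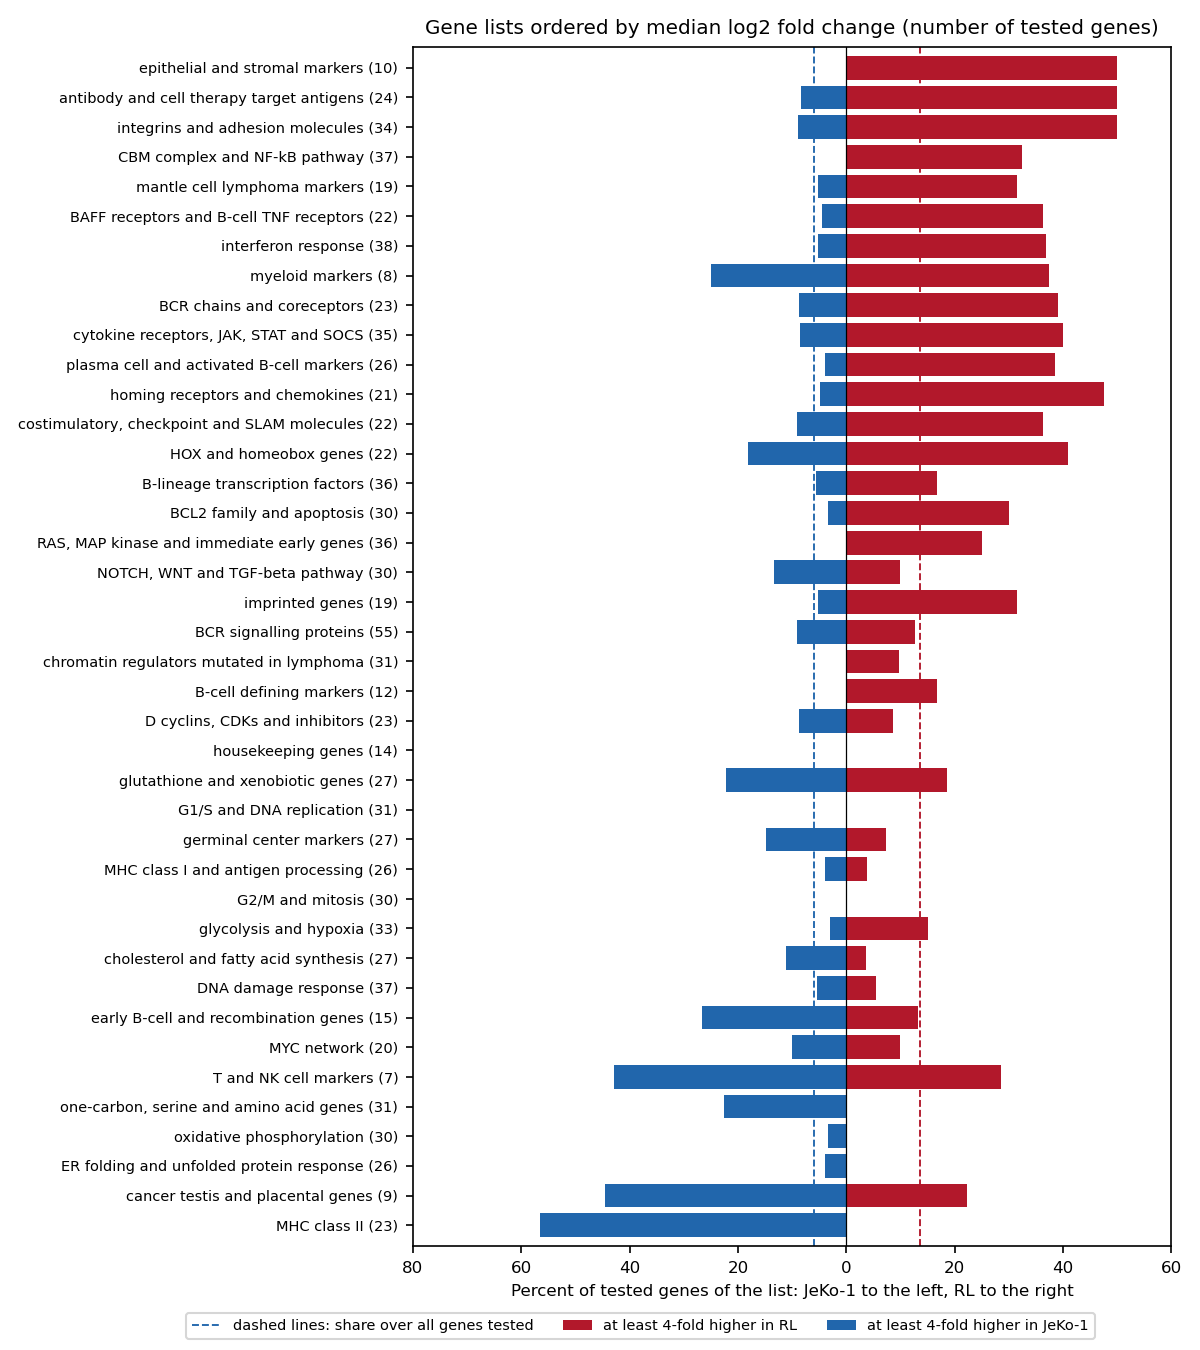
Share of the tested genes of each list (percent) that were called and at least 4-fold higher in RL (red, to the right) or in JeKo-1 (blue, to the left), for lists with at least 7 tested genes, ordered by median log2 fold change; dashed lines mark the shares over all genes tested (13.6% and 5.95%). NF-kB, antigen and adhesion lists pass the red line, MHC class II reaches 56.5% in JeKo-1, and the G1/S and G2/M lists have no gene past 4-fold.

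Interferon-induced genes were higher in RL for 32 of 38 tested and in JeKo-1 for 5, with 14 and 2 past 4-fold and a median of 1.24. IFI44, OAS3 and IFIT5, antiviral genes, were among them: OAS3 stood at 38.4 and 33.5 CPM in RL against 1.82 CPM in JeKo-1 and IFIT5 at 19.3 and 16.6 CPM in RL against 0.597 CPM in JeKo-1, and IFI44 had 604 and 459 reads in RL against 2 in JeKo-1. TMEM173, which encodes STING, an adaptor in the sensing of DNA, was lower in RL, with 2 and 4 reads against 177. Of 36 genes of RAS and MAP kinase signalling, 9 were past 4-fold in RL and none in JeKo-1. DUSP5 and DUSP6, phosphatases that the kinases ERK induce, were 18.4 and 14.0 times as high in RL, and JUN 11.4 times, whereas NF1 and IER2 differed by -0.04 and 0.06 on the log2 scale. Of 30 tested NOTCH, WNT and TGF-beta genes, 3 were past 4-fold in RL and 4 in JeKo-1. NOTCH1, which is mutated in some MCL, stood at 13.0 and 11.1 CPM in RL against 0.934 CPM in JeKo-1, its target HES1 had 246 and 230 reads in RL against 3, and the ROR1 ligand gene WNT5A was 7.63 times as high in JeKo-1.

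Genes of growth metabolism leaned to JeKo-1, mostly by less than 4-fold. Of 30 oxidative phosphorylation genes, 22 were higher in JeKo-1 and 3 in RL, with a median of -0.76. ATP5B, a subunit of ATP synthase, stood at 532 and 516 CPM in RL against 1977 CPM in JeKo-1, and UQCRC2, SDHD and NDUFS1 were 3.08, 2.93 and 2.75 times as high in JeKo-1, while UQCRFS1 and NDUFB8 differed by 0.01 and -0.01 on the log2 scale. Of 31 genes of serine, one-carbon and amino acid metabolism, 20 were higher in JeKo-1 and 7 in RL; 7 were past 4-fold in JeKo-1 and none in RL. PHGDH, which opens serine synthesis, stood at 35.2 and 38.1 CPM in RL against 159 CPM in JeKo-1, ASS1, which makes argininosuccinate, at 1.01 and 1.14 CPM in RL against 33.1 CPM in JeKo-1, and the stress factor gene DDIT3 at 14.6 and 15.9 CPM in RL against 123 CPM in JeKo-1. Of 26 genes of protein folding in the endoplasmic reticulum, 18 were higher in JeKo-1 and 3 in RL, with a median of -0.77, and PDIA4 stood at 197 and 196 CPM in RL against 665 CPM in JeKo-1. The directions of these 3 lists were the same under each scaling.

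Sterol genes differed by member. ABCA1, which exports cholesterol, stood at 0.564 and 1.09 CPM in RL against 60.1 CPM in JeKo-1. CYP51A1, an enzyme of cholesterol synthesis, was 3.41 times as high in RL, and the regulator gene SREBF2 3.49 times as high in JeKo-1. SCD, ACLY and MVK differed by 0.02, 0.03 and 0.04 on the log2 scale and did not pass the test (adjusted p from 0.645 to 0.751). Of 27 tested genes 7 were higher in RL and 13 in JeKo-1. Of 33 glycolysis and hypoxia genes, 15 were higher in RL and 17 in JeKo-1; the neuronal enolase gene ENO2 stood at 25.3 and 29.6 CPM in RL against 0.701 CPM in JeKo-1, and the glucose transporter gene SLC2A3 at 21.2 and 32.5 CPM in RL against 1.19 CPM in JeKo-1. SLC2A3 and PFKFB4 differed between the RL libraries more than most genes, PFKFB4 standing at 6.91 and 15.5 CPM in RL against 2.54 CPM in JeKo-1. Among 27 tested glutathione and drug-handling genes 5 were past 4-fold in RL and 6 in JeKo-1, and the median of -0.03 turned to 0.13 when scaled by total reads. MGST1 had 520 and 557 reads in RL and none in JeKo-1.

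Of 31 genes of G1/S and DNA replication 12 were higher in RL and 15 in JeKo-1, and of 30 genes of G2/M and mitosis 11 and 15. None of either list was past 4-fold in either direction, against 13.6% and 5.95% of all genes tested. Their medians were -0.05 and -0.12, and both turned positive when scaled by total reads (0.11 and 0.04). CDK1, BUB1 and CCNB1, which carry cells through mitosis, differed by -0.03, -0.05 and -0.08 on the log2 scale, and the replication helicase gene MCM2 by 0.07. MCM3, of the same helicase, was 2.89 times as high in JeKo-1. Of 31 chromatin regulators mutated in lymphoma, 20 were higher in RL and 9 in JeKo-1 with 3 past 4-fold in RL, and KDM6A, ARID1B and DNMT1 differed by -0.0031, -0.09 and 0.16. Of 14 housekeeping genes none was past 4-fold, although ACTB stood at 4605 and 4537 CPM in RL against 1641 CPM in JeKo-1 and GAPDH at 1854 and 2005 CPM in RL against 3213 CPM in JeKo-1. RPL13A and PPIA differed by -0.01 and 0.01.

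Markers of other cell types were mostly at or near 0, apart from some epithelial genes in RL. EPCAM, an adhesion molecule of epithelia, stood at 80.4 and 77.4 CPM in RL with no read in JeKo-1, at least 1013-fold higher in RL. CDH1, which encodes E-cadherin, had 204 and 212 reads in RL and none in JeKo-1, KRT8 93 and 110 against 1, and KRT18 139 and 171 against 3. The defining epithelial gene KRT19, the stromal gene COL3A1 and the endothelial gene CDH5 had no read in any library. Summed over 16 epithelial and stromal markers the RL libraries held 148.7 and 144 CPM and JeKo-1 26.5 CPM; of 10 tested, 8 were higher in RL and none in JeKo-1, with a median of 3.40, or 2.49 with genes at 0 reads held at their bound. That median was 1.40 without RL control 1, 1.31 without RL control 2, 1.36 in the fit of all 7 libraries and 2.27 with no filter on low counts. The fits without an RL control and of all 7 libraries also held the treated libraries. The markers that pass the filter can differ between fits, so these values do not show the effect of an RL control alone. The 16 T and NK cell markers summed to 4.02 and 3.96 CPM in RL against 34.6 CPM in JeKo-1, of which IL7R made up 22.3 and CD247 9.42 CPM. The 16 myeloid markers summed to 12.6 and 14.5 CPM in RL against 8.88 CPM in JeKo-1, and the 10 erythroid and platelet markers to at most 0.470 CPM. The part of other cells in any gene above was not tested.

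Cancer testis genes, which adult tissue other than testis keeps silent, were listed together with placental genes. This list was mostly unread: of 36 genes, 24 had no read in JeKo-1 and 21 none in RL. Of 9 tested, 6 were higher in JeKo-1 and 2 in RL, with 4 and 2 past 4-fold. CTAG2 had 1548 reads in JeKo-1 and none in RL, and MAGEB2 2946 against 0 and 1; both belong to families of close copies, so their reads are uncertain. PRAME was read in both lines, at 46.7 and 44.7 CPM in RL against 119 CPM in JeKo-1. DDX43 and ACTL8 were 12.6 and 10.6 times as high in JeKo-1, whereas MAGEA6 had 35 and 39 reads in RL and none in JeKo-1. Of 22 tested homeobox genes, 9 were past 4-fold in RL, or 8 at their bound, and 4 in JeKo-1: MEIS2 had 99 reads in JeKo-1 against none, and HOXD3 had 88 and 87 in RL against none. Of 19 tested imprinted genes, 6 were past 4-fold in RL, or 4 at their bound, and 1 in JeKo-1; GRB10 was 20.4 times as high in RL, and SNRPN differed by 0.06.

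The medians of a few whole chromosomes stood away from 0. The median log2 fold change was 1.23 over 207 tested genes of chromosome 18, where 90.3% of genes lay above 0 and 34.8% were past 4-fold in RL. It was 1.13 over 546 genes of chromosome X, 0.51 over 1106 genes of chromosome 19 and -0.68 over 801 genes of chromosome 6, where 15.7% were past 4-fold in JeKo-1. The other chromosomes had medians between -0.35 and 0.48. DNA was not measured.

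**Figure D4:**
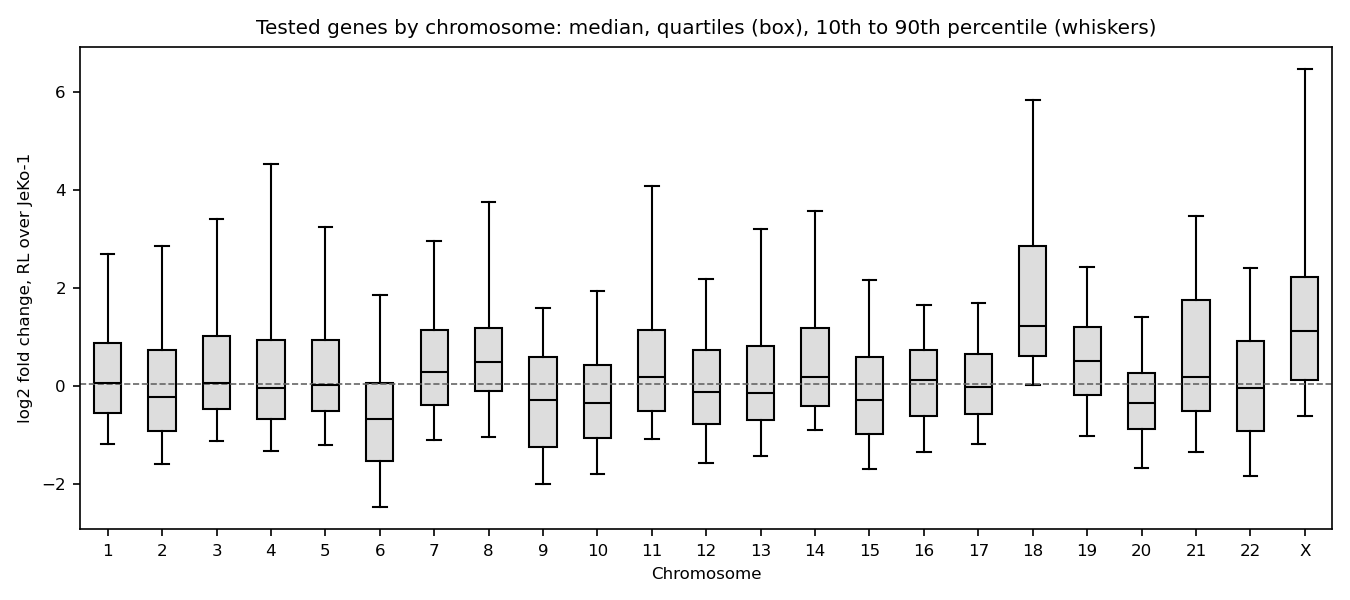
Log2 fold change of RL over JeKo-1 (y axis) for tested genes of each chromosome (x axis), with the median as a line, quartiles as a box and the 10th to 90th percentile as whiskers; the dashed line is the median of the genes shown. Chromosomes 18 (median 1.23) and X (1.13) lie above and chromosome 6 (-0.68) below the rest.

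Some genes described above differed together with their neighbours and others apart from them. Around each gene the 10 nearest tested genes on either side in RefSeq gene order were taken; over all 14963 genes with 20 such neighbours, their median reached 1 for 8.25% and -1 for 5.43%. Of 8 genes often altered in B-cell lymphoma, only BCL2 and BIRC3 had a neighbour median beyond 1 in either direction. Around BCL2, 18 of 20 neighbours were called higher in RL and the median was 2.23, a value of at least 2 being reached by 1.20% of all genes; the window includes PMAIP1, VPS4B and ZCCHC2 at 3.22, 2.70 and 3.36. The window of MALT1 overlaps it, the 10 genes after MALT1 being the 10 before BCL2; with TCF4 and others on its far side, 19 of its 20 genes were higher in RL (median 2.32). Around BIRC3 the median was 1.35, or 3.47 with 5 genes on either side, while BIRC2 beside it differed by 0.01. Of those nearer genes, PGR, YAP1, MMP7 and MMP10 had no read in JeKo-1 and 0.214 to 1.42 CPM in RL. Neighbour medians use fitted folds with no bound against 0 reads, so the size of 3.47 depends on such genes. MYC at -3.76 stood apart from its neighbours (median 0.46, or 0.18 with 5 on either side), of which PVT1 stood at 10.8 and 10.9 CPM in RL against 6.80 CPM in JeKo-1. The neighbour medians of CCND1, CDKN2A, ATM and RB1 were 0.44, -0.11, 0.01 and -0.40, or 0.50, -0.33, 0.26 and -0.40 with 5 on either side.

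Further windows were chosen after the values of their genes were seen. The 20 neighbours of CCND3 on chromosome 6 had a median of -1.65, 17 of them higher in JeKo-1, and a median of -1.5 or lower was found for 1.40% of all genes. CDK4 and STAT6 lie in 1 region of chromosome 12, with neighbour medians of -1.07 and -1.23, or -1.08 and -0.55 with 5 on either side; it also holds the one-carbon enzyme gene SHMT2 at 154 and 175 CPM in RL against 701 CPM in JeKo-1. Of the 20 neighbours of CDK6, 19 were higher in RL. Their median of 1.69 was far below the 14.7 of CDK6 itself, which had 1 read in JeKo-1. Around EPCAM and CD44 the medians were 0.00 and -0.28, so these genes stood apart. The median around BCL2L11 was 1.02, although the gene itself had no read in JeKo-1 and was at least 973-fold higher in RL. LOC541471 beside it had 266 and 316 reads in RL and none in JeKo-1. Around CCL22 the median was 0.50, or 0.25 with 5 on either side, yet the chemokine genes next to it, CX3CL1 and CCL17, were high with it: CX3CL1 had 519 and 475 reads in RL and 3 in JeKo-1, while the flanking genes PLLP and CIAPIN1 differed by -0.27 and -0.13.

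**Figure D5:**
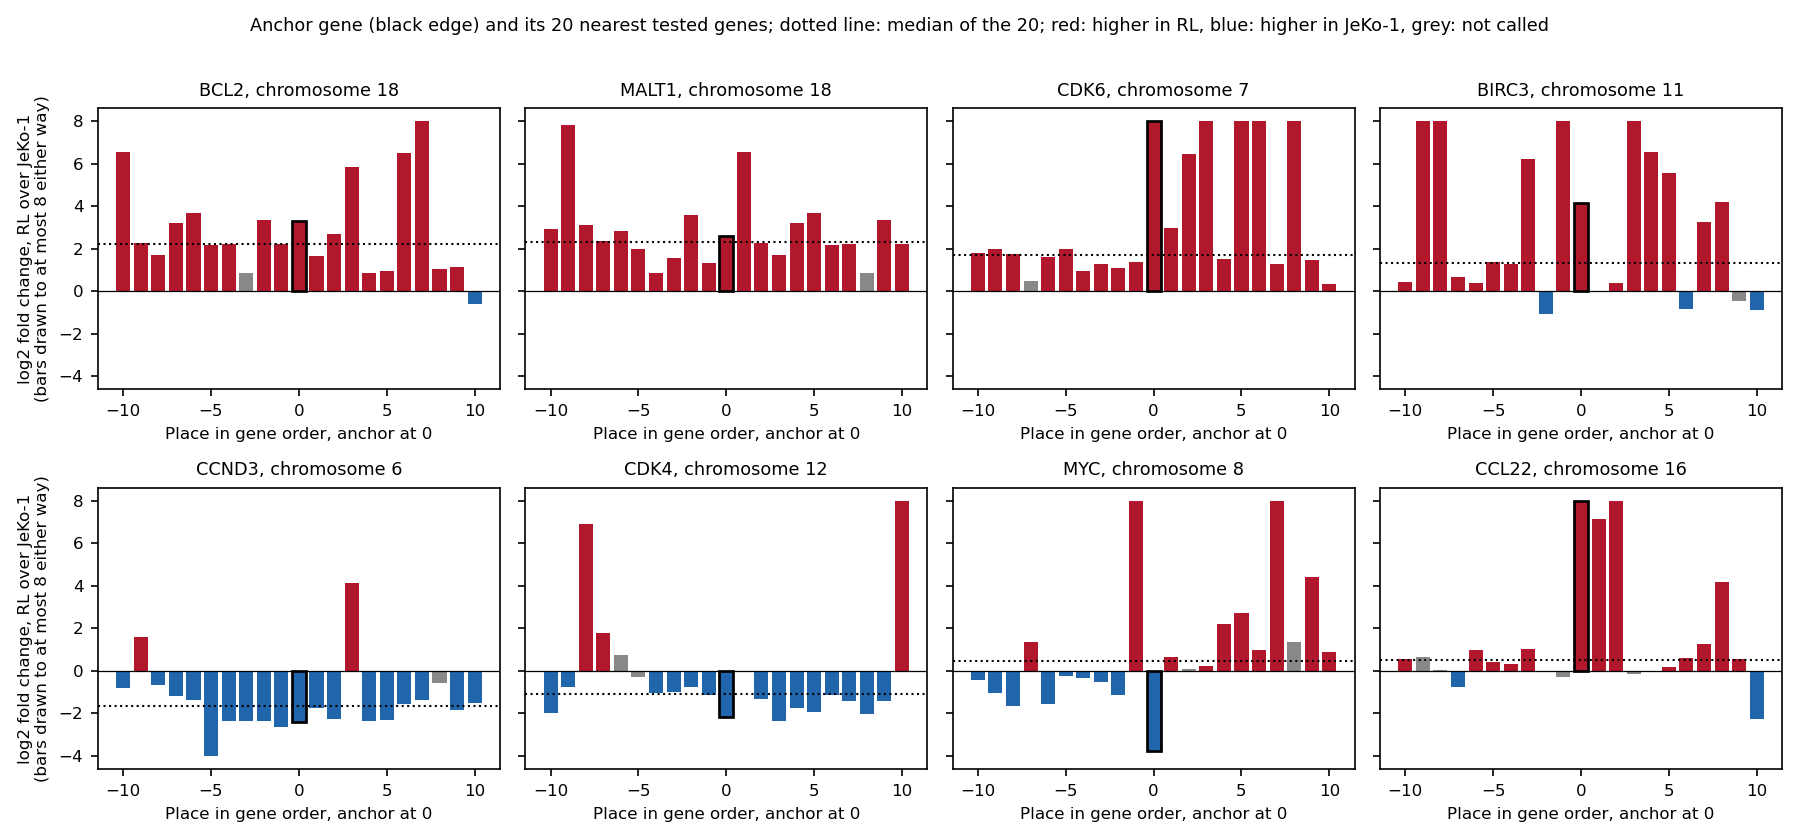
Log2 fold change of RL over JeKo-1 (y axis, bars drawn to at most 8 either way) of 8 genes (black edge, place 0) and their 10 nearest tested genes on either side in gene order (x axis); red and blue bars are called higher in RL or JeKo-1, grey bars are not called, and the dotted line is the median of the 20 neighbours. The windows of BCL2, MALT1 and CDK6 lie almost wholly above 0 and those of CCND3 and CDK4 mostly below. MYC and CCL22 differ from most of their surroundings. The bar of CDK6 itself, at 14.7, is cut at 8.

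Histone genes of the large cluster on chromosome 6 showed an all-or-none difference in a few members. HIST1H2BM, HIST1H2AI, HIST1H3H, HIST1H3F and HIST1H3G had 13120, 12543, 7351, 7219 and 8883 reads in JeKo-1 and none in either RL library. HIST1H2BL and HIST1H2AJ had 9604 and 11663 reads in JeKo-1 and at most 3 in RL. HIST1H2BL, HIST1H2AI, HIST1H3H, HIST1H2AJ and HIST1H2BM follow each other in gene order. Genes on either side of them differed far less: ZNF184 before them differed by -0.32 on the log2 scale and PRSS16, beyond it, by -2.34. HIST1H4J, HIST1H4K and HIST1H2AK, which come next after them, were higher in RL, by 0.82, 0.98 and 0.76. Of 62 tested histone genes, 39 lay within 2-fold, 14 were past 4-fold in JeKo-1 and 2 in RL, and the median was -0.25. HIST1H3C and HIST1H2BB had 13022 and 15411 reads in JeKo-1 and 31 and 33, and 100 and 113, in RL. Core histone genes are near copies of each other, so reads that fit several members make single counts uncertain; the part of this in the pattern was not tested.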

How the data were processed

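RNA was extracted with Trizol and libraries were made with a TruSeq RNA kit, per the labels' protocols. The submitters' processing notes name CASAVA 1.8, BWA, Partek 6.6 and hg19, without their roles, and the kit does not mark strand. The deposited tables hold read counts per RefSeq transcript for each library, with the authors' own log2 ratios and p-values, which were not used. Tables of both lines were joined by transcript. All 34917 transcripts of 22257 genes entered edgeR 4.0.16 in R 4.3.3 (TMM factors, filterByExpr, quasi-likelihood test, Benjamini-Hochberg adjustment over 25919 tested transcripts), with RL control and JeKo-1 control as groups. All adjusted p-values in the text come from it. A gene is represented by the transcript of highest mean over these libraries. Intervals are exact 95% counting intervals. Members and gene lists were chosen with earlier results of these data known. Named genes are the 15 largest differences each way at 20 CPM or more, and per list the 6 largest called and 3 smallest differences, with a fixed set of lymphoma genes; other list members, neighbours and the further windows were named after their values were seen. Scaling, filtering, DESeq2 1.42.0 and leaving out libraries were tried as alternatives. The biological coefficient of variation was 3.94%, estimated from the RL libraries alone. The fit was tested on simulated data. Treated libraries entered only the alternative that fits all 7 and those that leave out an RL control. In the latter, the spread came from the treated libraries alone. Results of a few genes are not reported here.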

Additional observations from a re-analysis of the deposited data

How the results depend on the processing

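The count of called genes stayed within 1.5 times its value of 12176 under every alternative tried, from 9541 with DESeq2 to 12507 with no filter on low counts. Fits without an RL control took their spread from the treated libraries alone. Calls kept or lost in them therefore do not show how the untreated libraries vary. The share of calls higher in RL moved from 51.4% to 59.0% when libraries were scaled by total reads alone, which shifted the median of all genes by 0.16 on the log2 scale. At a minimum of 5 CPM in place of 20, 96 genes had reads in RL only and 24 in JeKo-1 only. The glutathione median also turned, to 0.058 without the filter, 0.018 in the fit of all 7 libraries and 0.026 and 0.014 without RL control 1 and 2. Of the counts of list members past 4-fold, 639 alternative values stayed within 1.5 times and 17 did not, each a count of at most 2 as reported; scaled by total reads, CXCR4 fell below 4-fold, which left 1 target antigen and no homing gene past it in JeKo-1. For the 239 genes named, 1816 alternative values kept direction and call, 42 turned, 33 lost the call and 21 gained it. Calls lost without RL control 1 were those of DBN1, DNMT1, FLI1, MME, NFYC and RBL1, and without RL control 2 those of BTK, FLI1, IRF8, NFYC, RBL1 and RFXANK; DESeq2 also did not call FGR, IGF1R, NFKB2, PAX5 and TNFRSF1A. Genes whose small difference turned, none of them called as reported, were under total reads ARID1B, BACH1, BUB1, CCNB1, CDK1, CIAPIN1, CYCS, E2F1, GNA13, KDM6A, KLHL6, NDUFB8, NF1, ODC1, RPL13A, S1PR2 and VAV1, at 0.073, 0.090, 0.11, 0.085, 0.13, 0.025, 0.078, 0.074, 0.16, 0.16, 0.062, 0.15, 0.12, 0.037, 0.15, 0.11 and 0.11; under RLE scaling BAD, BIRC2, PPIA, SCD and UQCRFS1, at -0.0069, -0.015, -0.0092, -0.0017 and -0.014; under DESeq2 BAD, BIRC2, PPIA, SCD and UQCRFS1, at -0.0065, -0.014, -0.0093, -0.0017 and -0.014; with 1 transcript per gene in the fit GNA13, KDM6A, NDUFB8 and RPL13A, at 0.015, 0.015, 0.0056 and 0.012. Without RL control 1 and without RL control 2, BAD stood at -0.0027 and 0.038, BIRC2 stood at -0.013 and 0.032, CD274 stood at 0.44 and -0.34, CYCS stood at -0.19 and 0.023, GNA13 stood at -0.048 and 0.045, IER2 stood at -0.036 and 0.17, KDM6A stood at -0.012 and 0.011, NDUFB8 stood at 0.0036 and -0.024, PPIA stood at 0.053 and -0.025, RPL13A stood at 0.030 and -0.039 and S1PR2 stood at -0.24 and 0.13. No paired analysis was possible because the groups compared share only 1 replicate number, and the JeKo-1 control could not be left out, so its own spread is not known. Depth limits genes near 3 reads per library.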

Other observations

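Some families that the lists did not hold were read in RL only or nearly so; they were chosen after their values were seen. On chromosome X, the 4 tested BEX genes held 1455 and 1525 reads in the RL libraries and none in JeKo-1, and the 5 tested TCEAL genes 2255 and 2453 reads against 98. These families of small proteins lie near each other. Around BEX1 the median log2 fold change of the 20 nearest tested genes was 5.85, with 18 higher in RL and none in JeKo-1. No bound was applied to this median. Several of these genes had no read in JeKo-1, such as RAB40AL at 0.236 CPM in RL, so the size of the median is uncertain. BEX1 itself had 671 and 717 reads in RL and none in JeKo-1. Of other X genes, TMSB15A had 880 and 919 reads, ZNF711 1167 and 1129 and ARMCX5 406 and 446, all against none in JeKo-1.

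The clustered protocadherins, cell surface adhesion proteins known from neurons, showed the same direction. All 15 tested PCDHA genes were higher in RL, with 593 and 606 reads in sum against none in JeKo-1, but these genes share exons, so they are not independent counts. Of 8 tested PCDHB genes 7 were higher in RL and none in JeKo-1, with 316 and 367 reads against 11. What these genes have in common beyond their position was not tested.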
